A study of Mus musculus with 6 samples.

Results

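The genes described here encode 9 ligands and receptors of the neurotrophin and GDNF pathways: the receptor Ret, its co-receptors Gfra1 and Gfra2, their ligand Gdnf, the neurotrophins Ntf3 and Bdnf, and the neurotrophin receptors Ntrk2, Ntrk3 and Ngfr. The genes were chosen by function, by symbol, and all 9 were found among the 52997 symbols of the count table. Messenger RNA was sequenced from mesenchymal stromal cells of C57BL/6 mice aged 8 weeks, at homeostasis, with no treatment or engineered allele named. A muscle group came from hindlimb skeletal muscle and a lymph node group from pooled inguinal, axillary, brachial and cervical nodes, with 3 libraries each of 1000 double-sorted cells. The sources used here do not give the surface markers of the sort. The submitters call the libraries biological replicates, but a pair of muscle titles shares a number, so p-values may partly measure technical spread.

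Neurotrophins are small secreted proteins that keep neurons alive and steer their branches. Each binds a preferred receptor tyrosine kinase of the Trk family: brain-derived neurotrophic factor that of Ntrk2 (TrkB), and neurotrophin-3, encoded by Ntf3, that of Ntrk3 (TrkC). All of them also bind the product of Ngfr, a receptor with a death domain. Ligands of the GDNF family act through another route, in which a membrane-anchored co-receptor such as those encoded by Gfra1 and Gfra2 captures the ligand and presents it to RET, the signalling kinase. In muscle, GDNF is known as a survival factor for motor neurons and neurotrophin-3 as one for the sensory neurons of muscle spindles.

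The libraries are called by the numbers in the count table, muscle 2, 3 and 4 and lymph node 1, 2 and 3. They held between 415460 and 2397134 counts, and muscle 4 was the shallowest, so that 1 count there equals 2.69 CPM (the count scaled to a common library size) against 0.768 or less elsewhere. Muscle 4 stood apart (Pearson r of log2 CPM 0.705 and 0.702 to muscle 2 and 3 across genes, which are not independent, where muscle 2 and 3 had 0.952). It also held more blood cell RNA: summed T cell, B cell and myeloid markers were 446, 1874 and 812 CPM there, against at most 11.1, 260 and 38.7 CPM in the other libraries. Of the 812 CPM, 589 were Ptprc, which T and B cells also express. Of the other myeloid markers, Lyz2, Cd14 and S100a9 had 31, 19 and 17 counts in muscle 4, and Csf1r, Itgam and Cd68 had 0. All 10 stromal markers, among them Pdgfra and Col1a1, were detected in every library. In muscle 4 Pdgfra was at 651 CPM, against 1193 and 1331 in muscle 2 and 3, and Ly6a at 495 against 973 and 941. Cd34, Pdpn, Dcn and Col1a2 were also below both, Thy1, Col1a1 and Col3a1 lay between them, and Lum was above both. The sum of the 10 was 74844 CPM in muscle 4, between the 86134 and 67184 CPM of muscle 2 and 3. Results are therefore given with and without muscle 4. If muscle 2 and 3 are the pair whose titles share a number, p-values without muscle 4 may mostly measure technical spread. Summed CPM of 8 immediate early genes such as Fos and Egr1, which cells switch on quickly after a stimulus, ran from 2013 to 2694 in muscle and from 16993 to 18459 in lymph node, and its part in the results below was not tested.

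Of the 9 genes, 6 had enough counts for the test across all genes and 3 (Gdnf, Bdnf and Ngfr) did not. Ret was higher in muscle and Ntrk2 was higher in lymph node, and Gfra1, Gfra2, Ntrk3 and Ntf3 did not pass the threshold (adjusted p under 0.05, by edgeR's quasi-likelihood test with Benjamini-Hochberg adjustment over 10823 genes). Of all tested genes 4.32% passed, 1.46% as higher and 2.86% as lower in muscle. Without muscle 4, Gfra1 passed as well, which made 2 higher and 1 lower of 6, where 4.79% of all genes passed as higher and 7.58% as lower (12.4% together). Levels of the tissues did not overlap for Ret and Ntrk2, as was the case for 23.6% of all tested genes (9.93% higher and 13.7% lower in muscle). In these sorted pools, fewer cells that express a gene and less RNA per cell cannot be told apart.

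**Figure D1:**
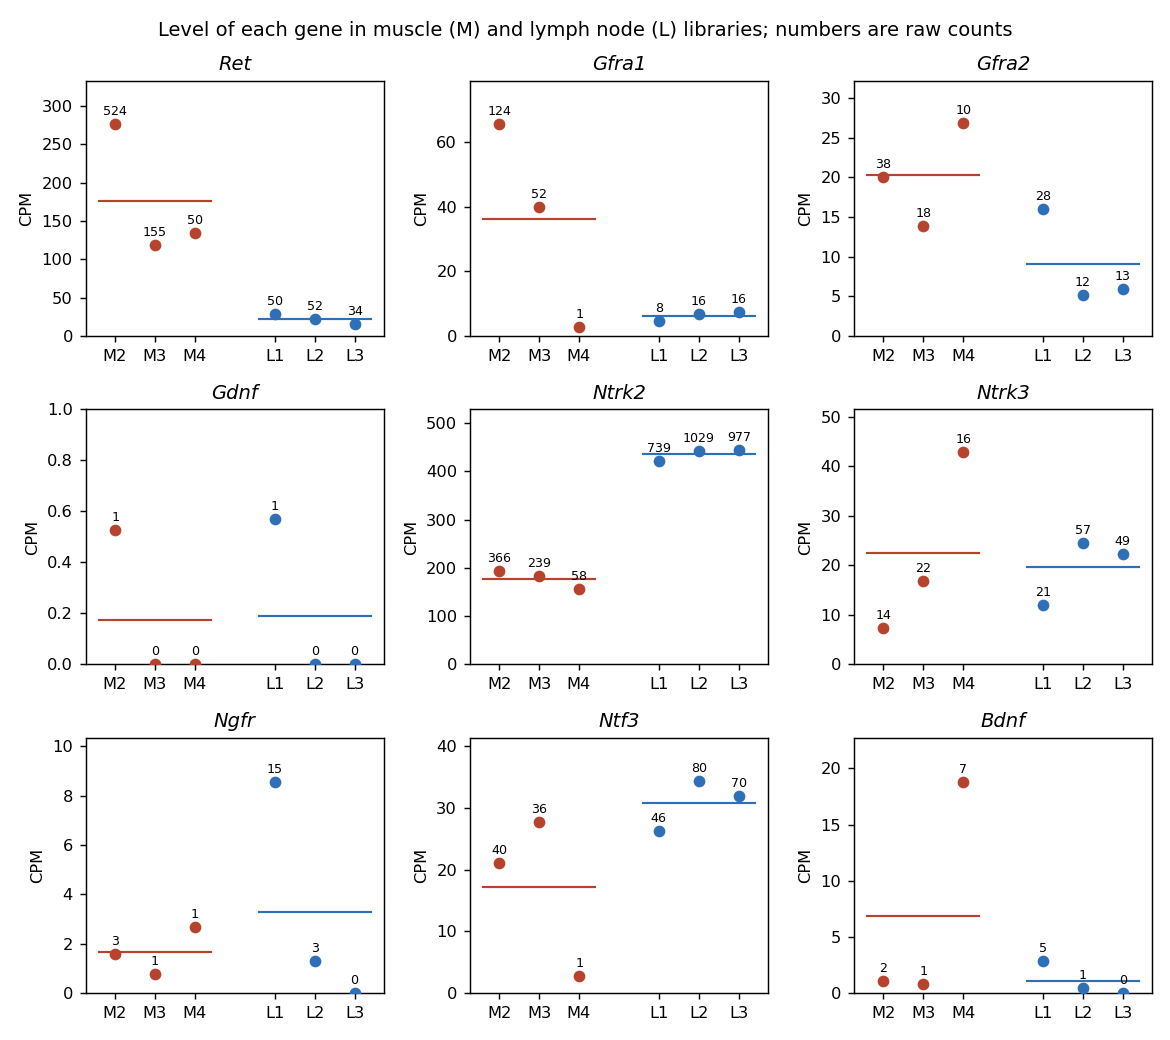
CPM of each of the 9 genes (y axis, from 0, a scale of its own in each panel) in muscle libraries 2 to 4 (red, M) and lymph node libraries 1 to 3 (blue, L), with the mean of each tissue as a line and the raw count above each point. The 3 muscle points of Ret lie above all lymph node points, those of Ntrk2 lie below them, and the muscle 4 point of Gfra1 rests on 1 count.

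The sequence upstream of Ntrk2, the gene that was lower in muscle, is shown because it differed between the tissues in all fits. The RefSeq promoter table used here has entries for 6 of the 9 genes, and Ret, Gfra2 and Ntrk3 have none. The sequence covers the 250 bases before the RefSeq start, chr13:58806319-58806568 on the plus strand of GRCm38.p6, with CpG dinucleotides in capitals:
Ntrk2: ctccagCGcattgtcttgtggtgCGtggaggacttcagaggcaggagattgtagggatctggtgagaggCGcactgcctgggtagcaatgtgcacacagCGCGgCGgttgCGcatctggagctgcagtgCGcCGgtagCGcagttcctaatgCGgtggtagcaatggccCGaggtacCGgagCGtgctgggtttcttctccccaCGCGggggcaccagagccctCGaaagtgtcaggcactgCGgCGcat
This window holds 19 CpG and 62.8% G or C, where the median of 32851 such windows was 6 CpG and 52.4%, and 19.7% of windows held at least 19 CpG. A search on both strands covered 5 motifs, and none of their letters were in the Ntrk2 window. The GC box, with the letters GGGCGG, was in 32.7% of all windows. The TATA box, with the letters TATAAA, was in 12.4% of them. The AP-1 site, spelled TGANTCA, was in 6.75%. The cyclic AMP response element, spelled TGACGTCA, was in 1.55%. The EGR site, spelled GCGNGGGCG, was in 4.7%, and it can share bases with a GC box. The window of Gfra1 held 10 CpG and none of these letters, the window of Ngfr held 16 CpG and 4 GC boxes, and the windows of Ntf3 held 11 and 14 CpG with 1 GC box each.

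In the GDNF branch the signalling receptor was the gene with the largest fold. Ret (chromosome 6, 118151745 to 118197718, minus strand, GRCm38) had 524, 155 and 50 counts in muscle 2, 3 and 4, or 276, 119 and 134 CPM. In lymph node 1, 2 and 3 it had 50, 52 and 34 counts, or 28.6, 22.3 and 15.5 CPM. The lowest muscle library was thus above the highest lymph node library, and muscle 2 was high among the muscle libraries. The muscle mean was 177 ± 86.7 CPM and the lymph node mean 22.1 ± 6.54 CPM (SD over 3 libraries). Expressed as log2 of muscle over lymph node, the fold change was 3.03 ± 0.38 (SE by edgeR, adjusted p = 0.00237), an 8.14-fold difference, with a 95% interval from 2.17 to 3.88. Without muscle 4 it was 3.19 ± 0.31 (edgeR adjusted p = 6.52e-06), a 9.1-fold difference, and without any 1 library it ran from 2.49 to 3.24 with adjusted p of at most 0.0366. None of the 25-base words of its annotated transcripts occurs in transcripts of another gene.

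Gfra1, the co-receptor that prefers GDNF (chromosome 19, 58235604 to 58455909, minus strand), was high in 2 of the 3 muscle libraries. It had 124 and 52 counts in muscle 2 and 3 (65.4 and 40.0 CPM) and 1 count in muscle 4 (2.69 CPM). Lymph node 1, 2 and 3 had 8, 16 and 16 counts (4.57, 6.87 and 7.28 CPM). Muscle 4 was therefore below all lymph node libraries, while muscle 2 and 3 were above all of them. At the pooled rate of muscle 2 and 3, muscle 4 would have held 20.5 counts, and its 1 count has an exact 95% Poisson interval from 0.0253 to 5.57 (counting error only). With all libraries the log2 fold change was 2.67 ± 0.65 (edgeR adjusted p = 0.0547), with a 95% interval from 1.21 to 4.13. Without muscle 4 it was 3.05 ± 0.31 (edgeR adjusted p = 9.88e-06), an 8.31-fold difference, and without muscle 2 it was 1.97 ± 0.73 (edgeR adjusted p = 0.251). With muscle 2 and 3 summed it was 2.42 ± 0.75 (edgeR adjusted p = 0.206). An antisense model, Gm16277, overlaps 7.6% of its exon bases and had 1 count in all libraries together.

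Gfra2, the co-receptor that prefers neurturin (chromosome 14, 70890120 to 70979838, plus strand), showed no such split. It had 38, 18 and 10 counts in muscle 2, 3 and 4 (20.04, 13.8 and 26.9 CPM) and 28, 12 and 13 in lymph node 1, 2 and 3 (15.99, 5.16 and 5.92 CPM). Lymph node 1 lay within the muscle range and the other lymph node libraries lay below it. The log2 fold change was 1.12 ± 0.52 (edgeR adjusted p = 0.364), with a 95% interval from -0.06 to 2.30. Without muscle 4 the value was 0.97 ± 0.46 (edgeR adjusted p = 0.223), and without lymph node 1 it was 1.78 ± 0.51 (edgeR adjusted p = 0.194). Counts of Gfra1 per count of Gfra2 in the same library, a quantity that no scaling touches, were 3.26 and 2.89 in muscle 2 and 3, and 0.1 in muscle 4. In lymph node 1, 2 and 3 they were 0.286, 1.33 and 1.23.

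Ligands of this branch were scarce in both tissues. Gdnf itself (chromosome 15, 7810846 to 7837575) had 1 count in muscle 2 and 1 in lymph node 1, and 0 in the other 4 libraries. A count of 0 allows up to 3 counts, which are 2.31 and 8.06 CPM in muscle 3 and 4 and 1.29 and 1.37 CPM in lymph node 2 and 3. The muscle to lymph node ratio was 1.76 with an exact 95% counting interval from 0.0224 to 138, so only a difference beyond these bounds could have been seen at this depth. Nrtn, which encodes neurturin, had 1 count in muscle and 0 in lymph node. Artn, which encodes artemin, had 7, 5 and 8 counts in muscle 2, 3 and 4 and 4, 3 and 7 in lymph node 1, 2 and 3, and the 8 counts of muscle 4 made 21.5 CPM there. Its ratio of muscle to lymph node was 2.51 (exact 95% counting interval 1.21 to 5.38), and 1.68 (0.711 to 3.92) without muscle 4. Gfra3, the co-receptor of artemin, had 2 counts in lymph node 1 and 0 elsewhere.

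In the neurotrophin branch the most abundant receptor was lower in muscle. Ntrk2 (chromosome 13, 58806569 to 59133970, plus strand) had 366, 239 and 58 counts in muscle 2, 3 and 4, or 193, 184 and 156 CPM. Lymph node 1, 2 and 3 had 739, 1029 and 977 counts, or 422, 442 and 445 CPM. The libraries of each tissue lay close together, and the groups were far apart: the highest library was 1.24 times the lowest in muscle and 1.05 times in lymph node. The means were 178 ± 19.3 CPM for muscle and 436 ± 12.5 CPM for lymph node (SD, n = 3 each), and Ntrk2 was lower in muscle by 2.44-fold (log2 fold change -1.29 ± 0.17, edgeR adjusted p = 0.00346). Without muscle 4 the log2 fold change was -1.22 ± 0.14 (edgeR adjusted p = 2.66e-05). It ran from -1.37 to -1.22 without any 1 library, with adjusted p of at most 0.0418. TrkB is made both as a full kinase and as a form that lacks the kinase domain, and gene-level counts do not separate them.

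Ntrk3, the receptor of neurotrophin-3 (chromosome 7, 78175959 to 78738012, minus strand), had 14, 22 and 16 counts in muscle 2, 3 and 4 (7.38, 16.9 and 43.0 CPM). In lymph node 1, 2 and 3 it had 21, 57 and 49 counts (12.0, 24.5 and 22.3 CPM). Muscle 4 was the highest library and muscle 2 the lowest, with the lymph node libraries between them. The log2 fold change was -0.10 ± 0.58 (edgeR adjusted p = 0.966), with a wide 95% interval from -1.41 to 1.2. Its sign was positive in 5 of 15 alternatives, among them the fit without muscle 2 (0.42), and without muscle 4 it was -0.78 ± 0.41 (edgeR adjusted p = 0.277). At the rate of muscle 2 and 3, muscle 4 would have held 4.19 counts, under the Poisson interval of its 16 counts (9.15 to 26.0).

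Ngfr, the shared receptor of all neurotrophins (chromosome 11, 95568818 to 95587735, minus strand), was near the limit of detection. It had 3, 1 and 1 counts in muscle 2, 3 and 4 and 15, 3 and 0 in lymph node 1, 2 and 3. Of 18 lymph node counts, 15 were in lymph node 1, so the lymph node libraries differed more among themselves than from muscle. The summed counts gave a ratio of lymph node to muscle of 2.05 with an exact 95% counting interval from 0.733 to 7.06, and 2.29 (0.755 to 9.31) without muscle 4. In a fit with no filter on low counts the log2 fold change was -1.25 ± 1.12 (edgeR adjusted p = 0.724). Ngfr is also a marker of follicular dendritic cells, and the 6 other markers of that cell type summed to between 24.9 and 28.6 CPM in lymph node and between 115 and 261 CPM in muscle. In lymph node 1, 2 and 3 Clu had 42, 40 and 37 counts, Coch 4, 7 and 5, Cr2 3, 5 and 11, Fcer2a 0, 1 and 3, Fcgr2b 1, 3 and 6, and Madcam1 0, 2 and 0. In muscle most of the sum was Clu in muscle 2 and 3 (230 and 142 counts) and Fcer2a and Cr2 in muscle 4 (63 and 25 counts). Their part in the Ngfr counts was not tested.

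Of the ligand genes, Ntf3 alone passed the filter. Ntf3, which encodes neurotrophin-3 (chromosome 6, 126101412 to 126166910, minus strand) had 40, 36 and 1 counts in muscle 2, 3 and 4 (21.1, 27.7 and 2.69 CPM) and 46, 80 and 70 in lymph node 1, 2 and 3 (26.3, 34.4 and 31.9 CPM). Lymph node levels were even and muscle 2 and 3 came close to them, with muscle 3 above lymph node 1. The log2 fold change was -0.64 ± 0.45 (edgeR adjusted p = 0.587, 95% interval from -1.64 to 0.36), and -0.37 ± 0.25 without muscle 4 (edgeR adjusted p = 0.43). As for Gfra1, the 1 count of muscle 4 was under the 8.84 counts that the rate of muscle 2 and 3 would give.

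Bdnf (chromosome 2, 109674700 to 109727007, plus strand) showed the opposite pattern in muscle 4. It had 2, 1 and 7 counts in muscle 2, 3 and 4 and 5, 1 and 0 in lymph node 1, 2 and 3. Of its 10 muscle counts 7 were in muscle 4, the shallowest library, where the rate of muscle 2 and 3 would give 0.349 counts (Poisson interval of the 7 counts from 2.81 to 14.4). The ratio of muscle to lymph node was 2.93 with an exact 95% counting interval from 0.965 to 9.81, and 0.981 (0.159 to 4.6) without muscle 4. In the fit with no filter it was 1.88 ± 1.17 on the log2 scale (edgeR adjusted p = 0.724). An antisense model, Gm45346, overlaps 14.4% of its exon bases and had 4 counts over all libraries, which cannot be told apart from Bdnf if strand was not used, and 14.5% of its 25-base words occur in other genes.

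In CPM, muscle 4 was below both other muscle libraries for Gfra1, Ntf3 and Ntrk2 and above both for Gfra2, Bdnf, Ntrk3 and Ngfr. Ret lay between them, since muscle 2 was at 276 and muscle 3 at 119 CPM. The Poisson intervals given for muscle 4 cover its counting error only. They take the rate of muscle 2 and 3 as exact, although for Bdnf it rests on 3 counts, and leave out the spread between libraries. The blood cell markers given above were high in the same library, and their part in these differences was not tested.

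**Figure D2:**
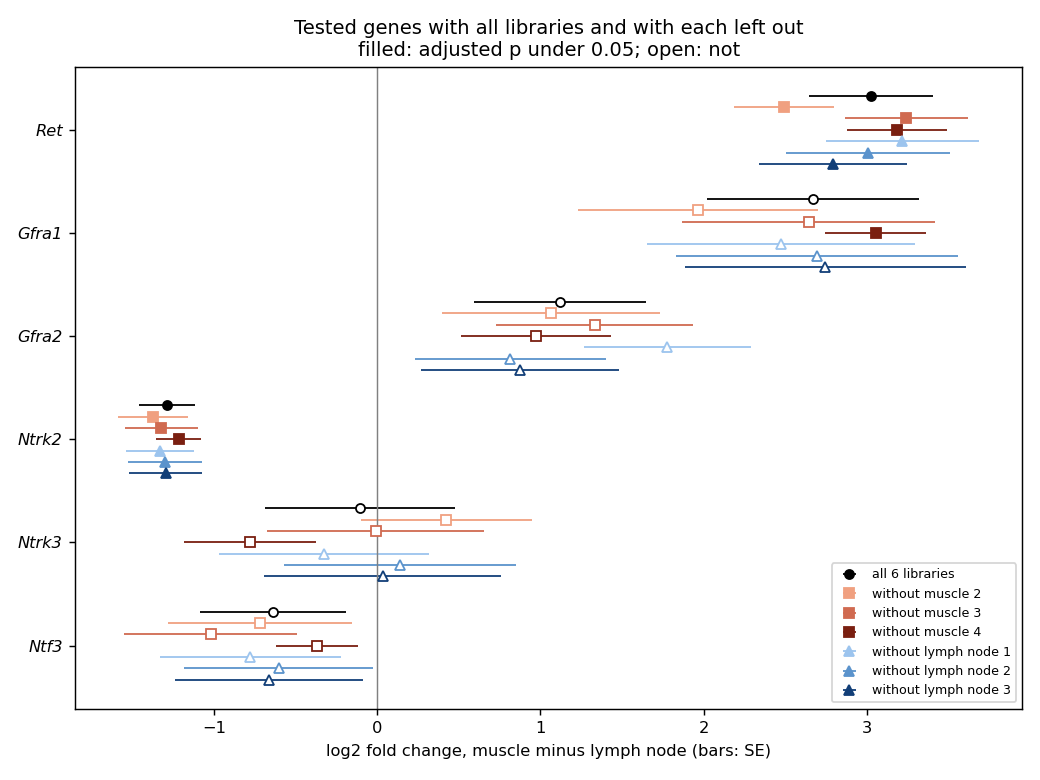
Log2 fold change, muscle minus lymph node (x axis, bars are SE), of the 6 tested genes with all 6 libraries (black circle), without each muscle library (red squares) and without each lymph node library (blue triangles). Filled symbols passed adjusted p under 0.05: Ret and Ntrk2 passed in all 7 fits shown and Gfra1 passed in the fit without muscle 4.

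Levels were compared between genes per kilobase of exon. In muscle, Ret was the highest at 26.1 ± 12.8 CPM per kb (SD, n = 3) and stood above Ntf3 at 10.01 ± 7.55 in all 3 libraries. Ntf3, Ntrk2 (9.2 ± 1.0), Gfra1 (6.58 ± 5.76) and Gfra2 (5.72 ± 1.84 CPM per kb) overlapped with their neighbours in that order. Bdnf, below Gfra2 in every library, Ntrk3 and Ngfr overlapped at means between 0.487 and 1.11 CPM per kb, and Gdnf was lowest at 0.0479. In lymph node the order opened with Ntrk2 at 22.6 ± 0.646, Ntf3 at 18.0 ± 2.42 and Ret at 3.27 ± 0.967 CPM per kb, each above the next in all 3 libraries. Gfra2 (2.55 ± 1.71 CPM per kb) overlapped with Ret and lay above Gfra1 (1.14 ± 0.267), after which Ngfr, Ntrk3, Bdnf and Gdnf overlapped with their neighbours at 0.953 CPM per kb or less. With the length of the principal transcript in place of all exons, Ntrk2 came before Ntf3 in muscle as well (20.3 against 11.6 CPM per kb), since its annotated exons, 19292 bases, include alternative ends.

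Per kilobase, the receptor that led in muscle was therefore not the one that led in lymph node. By principal transcript, Ret was at 32.4 and Ntrk2 at 20.3 CPM per kb in muscle. The lead of Ret in muscle rests on the division by length, since the muscle means in CPM were 177 for Ret and 178 for Ntrk2. Counts of Ret per count of Ntrk2 in the same library were 1.43, 0.649 and 0.862 in muscle 2, 3 and 4, so Ntrk2 had more counts in muscle 3 and 4. They were 0.0677, 0.0505 and 0.0348 in lymph node 1, 2 and 3. All 3 muscle libraries were above all lymph node libraries in this ratio, which does not depend on scaling or on muscle 4. Since Ret was higher and Ntrk2 lower in every muscle library, the ratio had to separate the tissues and is no separate evidence.

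**Figure D3:**
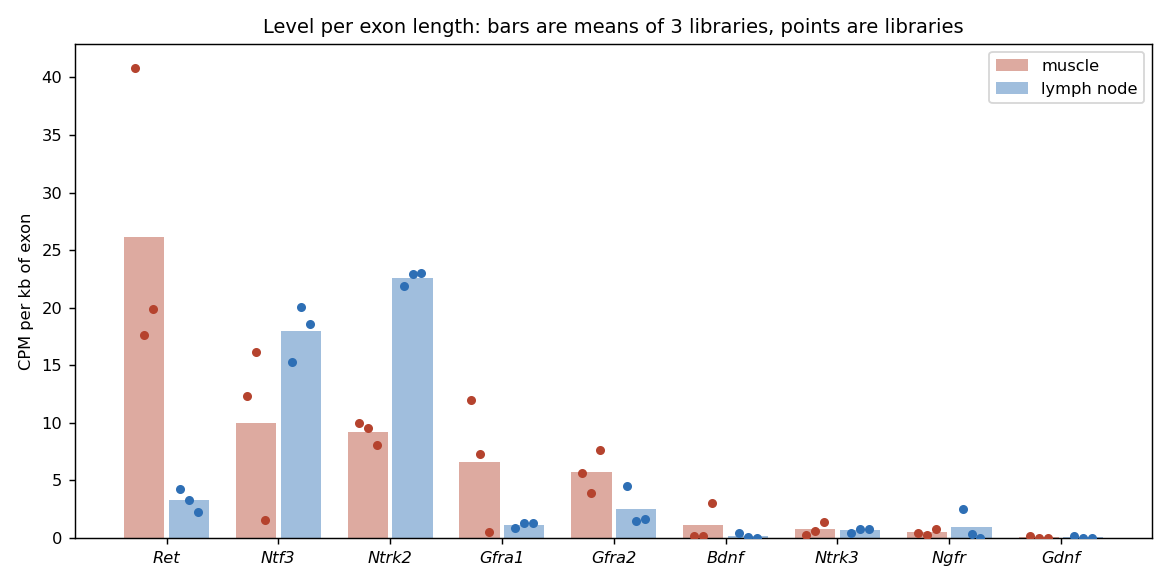
Level of each of the 9 genes in CPM per kilobase of exon (y axis, from 0) in muscle (red) and lymph node (blue), with bars for the mean of 3 libraries and points for libraries, ordered by the muscle mean. Ret leads in muscle at 26.1 CPM per kb and Ntrk2 leads in lymph node at 22.6.

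The rest of both pathways was read from lists of 75 further genes, of which 44 passed the filter. Of these, 3 were higher and 2 were lower in muscle and 39 were not called, where 4.32% of all tested genes were called. These 44 genes had a median log2 fold change of 0.17 against 0.02 for all tested genes. Without muscle 4, 9 of 47 were higher and 2 lower, where 4.79% and 7.58% of all genes were, with a median of 0.13 against 0.01. Leaving out muscle 2 or 3 left 1 or 3 calls, and leaving out lymph node 1, 2 or 3 left 1, 1 or 0.

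Receptors made up 2 of the 3 higher genes. Of 16 other receptors and co-receptors 6 were tested and 2 were higher, where 1.46% of all genes were, and without muscle 4 it was 6 of 8, where 4.79% of all genes were higher. Sorl1, a sorting receptor that carries TrkB and GDNF inside cells, had 21.1, 19.2 and 43.0 CPM in muscle 2, 3 and 4 and between 3.19 and 7.73 CPM in lymph node (log2 fold change 2.33 ± 0.51, edgeR adjusted p = 0.0325). Itga9, an integrin subunit, had between 55.9 and 88.7 CPM against between 22.8 and 35.7 CPM (1.16 ± 0.28, edgeR adjusted p = 0.0494). Both calls were lost when any 1 library other than muscle 4 was left out (edgeR adjusted p up to 0.181 and 0.253), or when muscle 2 and 3 were summed (0.090 and 0.126). The call of Itga9 was also lost with RLE scaling (0.0505) and with no filter (0.114). Ncam1, an adhesion molecule that can take up GDNF without RET, had 31.1, 23.1 and 10.8 CPM in muscle against 2.28, 11.6 and 11.4 CPM in lymph node. Its log2 fold change was 1.44 ± 0.56 (edgeR adjusted p = 0.255), and 1.64 ± 0.43 without muscle 4 (edgeR adjusted p = 0.0204). The other receptors that passed without muscle 4, named after their values were seen, were Gas1, a RET-binding relative of the GFRA proteins (1.2 ± 0.18), Sorcs2, a partner of NGFR (1.78 ± 0.42), and the syndecan Sdc3 (2.05 ± 0.45).

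Of the other ligands, Ntf5, which encodes neurotrophin-4, had 1 count in all.

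Among all tested genes 2.86% were lower in muscle. Of 8 genes for enzymes and inhibitors that act on neurotrophin precursors 6 were tested and 2 were lower in muscle. One was the plasminogen activator Plat, with 206, 223 and 108 CPM in muscle against 662, 449 and 570 CPM (lymph node, -1.61 ± 0.28, edgeR adjusted p = 0.0108). The call of Plat was lost without any 1 lymph node library (edgeR adjusted p up to 0.0771). The precursor-cleaving proteases Furin, Pcsk5, Pcsk6 and Pcsk7 were not called with all libraries. Without muscle 4 Pcsk6 was higher in muscle (log2 fold change 0.91 ± 0.14, edgeR adjusted p = 5.65e-04). That fit called 1 of the 6 tested genes higher and 2 lower, where 4.79% and 7.58% of all genes were. Of 26 tested adaptor and signalling genes, such as Shc1, Frs2, Grb2 and Ptpn11, 0 were called by edgeR, where 4.32% of all genes were. In a list of this size 0 calls lie near that share. Unadjusted, 2 had an edgeR p under 0.05. DESeq2 and limma-voom also called 0, with 2 and 3 under an unadjusted p of 0.05, where they called 686 and 630 of all 10823 genes. Without muscle 4 edgeR called 0, with 4 under an unadjusted p of 0.05, where 12.4% of all genes were called.

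Over all tested genes 4.32% were called, with 1.46% higher in muscle. Of 11 genes known to follow RET in the ureteric bud of the kidney, 6 were tested and 1 was called. It was Spry1, which encodes an inhibitor of receptor tyrosine kinase signals, with 64.9, 55.3 and 91.4 CPM in muscle against 29.7, 28.8 and 24.1 CPM (lymph node, 1.31 ± 0.25, edgeR adjusted p = 0.019). Its call was lost without muscle 2 or any 1 lymph node library (edgeR adjusted p up to 0.151) and with muscle 2 and 3 summed (0.0615), and an antisense-strand model overlaps 24.4% of its exon bases with 1 count in all. Of its 25-base words 23.4% occur in other genes. Etv5, a transcription factor of the same response that was named after its values were seen, had 26, 18 and 22 counts in muscle against 26, 14 and 10 in lymph node (1.55 ± 0.69, edgeR adjusted p = 0.336). Muscle 4 was at 59.1 CPM, against 13.7 and 13.8 in muscle 2 and 3, and without it the log2 fold change was 0.74 ± 0.47 (edgeR adjusted p = 0.3999).

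**Figure D4:**
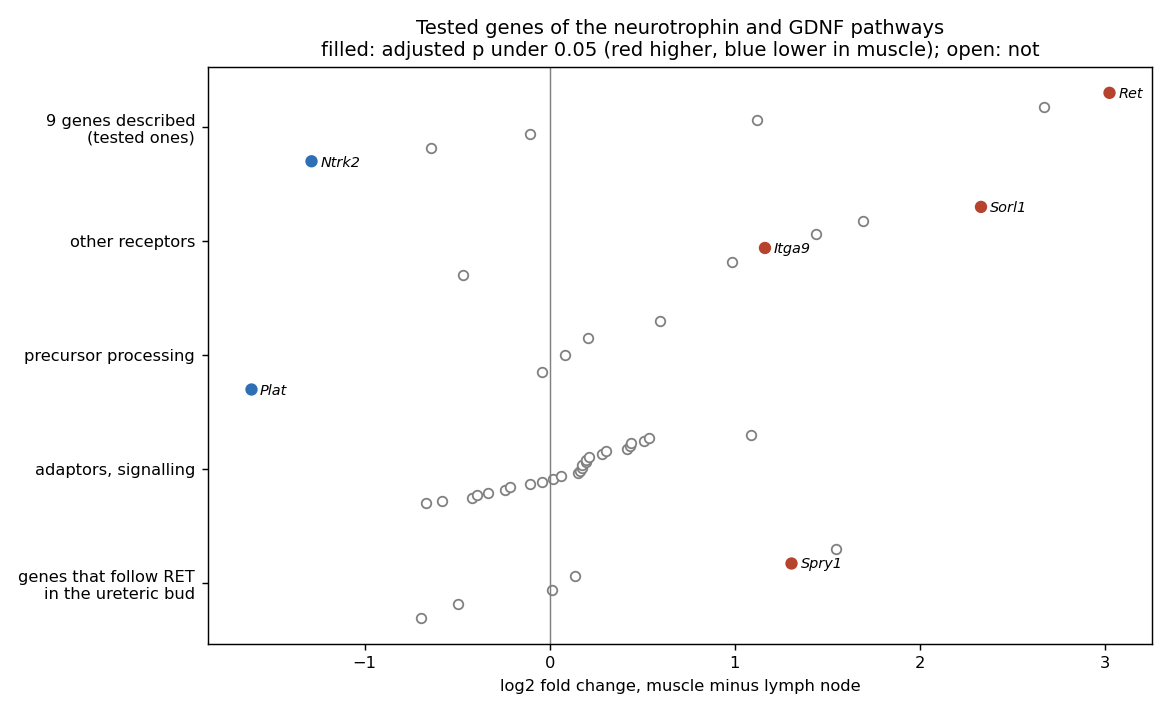
Log2 fold change, muscle minus lymph node (x axis), of tested genes of the 2 pathways, 1 point a gene, in rows by role. Filled points passed adjusted p under 0.05 (red higher, blue lower in muscle): Ret, Sorl1, Itga9 and Spry1 lie to the right, and Ntrk2 and Plat to the left, while the 26 adaptor and signalling genes are all open.

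Cells of nerves also make several of these receptors. Sox10, a defining Schwann cell gene, had 1 count in all 6 libraries together. The summed level of 14 Schwann cell markers was 272 to 508 CPM in muscle and between 487 and 514 CPM in lymph node, and most of it was Scn7a, with 430, 260 and 127 counts in muscle and 628, 892 and 853 in lymph node. The 11 neuron markers summed to between 54.3 and 102 CPM in muscle and between 27.4 and 38.2 CPM in lymph node. Among them Stmn2 had 11, 4 and 6 counts in muscle 2, 3 and 4 and 0, 2 and 1 in lymph node 1, 2 and 3, Prph had 8, 3 and 0 against 0 in all, and Tubb3 had 24, 1 and 13 against 8 in each. Uchl1 had 49, 49 and 8 against 32, 52 and 44 counts. Levels of Stmn2 alone did not overlap between the tissues, while those of Prph, Tubb3, Uchl1 and the other 7 markers did. The part of these cells in the Ret level was not tested. The 7 perineurial markers summed to between 17.9 and 26.9 CPM in muscle and between 17.2 and 29.7 CPM in lymph node. The 7 muscle stem cell markers summed to between 204 and 247 CPM in muscle and between 335 and 428 CPM in lymph node, mostly from Vcam1 and Sdc4, which other cells also express. Vcam1 was lower in muscle (172 counts against 1061), while the defining genes Myf5 and Pax7 had 0 counts in all libraries and at most 3 in any. The 9 muscle fibre markers reached 70.7 and 77.6 CPM in muscle 2 and 3, the libraries in which Gfra1 was high. They summed to 18.8 CPM in muscle 4 and at most 15.0 CPM in lymph node. Most of the sum in muscle 2 and 3 was Acta1 and Tnnt3. Acta1 had 67, 42 and 0 counts in muscle 2, 3 and 4 and 0, 1 and 0 in lymph node 1, 2 and 3. Tnnt3 had 31, 31 and 0 against 5, 10 and 16. Ckm and Tnni2 also had 0 counts in muscle 4. Myh1, Myh2 and Myh4 had at most 4 counts in any muscle library and up to 8 in lymph node. The part of muscle fibre RNA in the Gfra1 level was not tested.

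The genes whose profile over the 6 libraries was most like that of each called gene were found among 6703 tested genes of at least 20 CPM on average, by the root mean square difference of centred log2 CPM. For Ret these were Meox1 (0.46), a homeobox factor of the somite, the TGF-beta-binding Ltbp4 (0.51), the microfibril-associated Adamtsl2 (0.52), the clock repressor Bhlhe41 (0.54) and Sertad4 (0.54). Meox1 had between 79.1 and 99.5 CPM in muscle and between 6.37 and 18.8 CPM in lymph node. For Ntrk2 the distances were smaller: the survival factor Mcl1 (0.06), the ubiquitin gene Ubb (0.07), the lysosomal mannosidase Man2b1 (0.09), the complement protease C1s1 (0.10) and the growth factor receptor Egfr (0.10). Egfr, for example, had between 425 and 571 CPM in muscle and between 1053 and 1239 CPM in lymph node. Ubb and C1s1 shared 50.7% and 53.2% of their 25-base words with other genes, so their counts are uncertain.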

How the data were processed

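The authors deposited raw counts per gene symbol for 6 libraries. The submitters' processing notes name STAR 2.5.4, featureCounts and mm10. For the annotation release, the strand setting and reads with several alignments, the answer is not given in the sources used here. Per the labels' protocols, polyadenylated RNA was amplified by PCR and read as pairs of 25 bases, with no molecular identifiers described, so intervals and floors cover counting error only. Lymph node columns match sample titles. The muscle columns 2, 3 and 4 do not match the muscle titles one by one, so they were used as 3 muscle replicates with no link to single samples.

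Counts were tested with edgeR 4.0.16 in R 4.3.3: filterByExpr, TMM library sizes, and its quasi-likelihood test with tissue as the single term over all 6 libraries. CPM values use the TMM-scaled library size. A standard error is the size of the log2 fold change over the root of its F statistic. Alternatives were other scalings and filters, DESeq2 1.42.0, limma-voom (limma 3.58.1), a block by column number, muscle 2 and 3 summed, and leaving out each library. Symbols were matched to GENCODE M21 (GRCm38), where 93.1% were found; promoter windows are RefSeq's. The tests were tried on simulated data. The genes, lists and rules were chosen with earlier results of these data known; the immediate early list was added last. Named were the 9 genes, called pathway genes, 6 others, and the 5 profiles nearest each called gene. Some genes that this rule names are not reported here.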

Additional observations from a re-analysis of the deposited data

How the results depend on the processing

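Ret and Ntrk2 kept their direction and stayed under adjusted p 0.05 in all 15 alternatives each. Gfra1 was called by DESeq2 (2.59, adjusted p = 0.00642), with no filter (2.56, adjusted p = 5.55e-07), without muscle 4 and with the block below, and missed the threshold in the other 10 of 14 alternatives that tested it. Over all genes, 468 calls became 222 with muscle 2 and 3 summed, 945 with no filter, and between 142 and 1391 when 1 library was left out. Calls among other pathway genes went from 5 to 2 with muscle 2 and 3 summed, and to between 0 and 11 when 1 library was left out. Fewer libraries or more genes were tested in these fits. Without muscle 4, where calls rose to 1391, the fitted spread between libraries (common biological coefficient of variation) was 0.151, against 0.265 with all libraries. The cause of these changes was otherwise not tested. A replicate block by column number was also fitted, in which only numbers 2 and 3 are shared between tissues. Lymph node 1 and muscle 4 each hold a number alone, so they do not inform its tissue difference. Its Gfra1 call is thus another one without muscle 4. The block gave 1530 calls over all genes, 4 among the 9 genes (Gfra1 and Gfra2 added) and 11 among other pathway genes. The numbers were not taken as pairs. Deviations of same-numbered libraries from their tissue means had r of -0.03 and 0.02. The muscle mean includes muscle 4, which stood apart, so these values cannot decide whether the numbers are pairs. Scaling by total counts moved the median log2 fold change of all genes from 0.02 to 0.10. Depth limits Gdnf, Bdnf and Ngfr, which had 2, 16 and 23 counts in all.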

Other observations

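A gene of the ureteric bud list that lay below the filter is named here after its values were seen. Cxcr4, a chemokine receptor that is abundant on leukocytes, had 4, 2 and 40 counts in muscle 2, 3 and 4 and 0, 1 and 0 in lymph node 1, 2 and 3, so that muscle 4, the library with the most blood cell markers, held most of its counts.

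Gfra4, the co-receptor of persephin, had 2, 4 and 0 counts in muscle and 16, 8 and 7 in lymph node. The ratio of lymph node to muscle was 2.94, with an exact 95% interval from 1.21 to 8.62 (counting error only). In the fit with no filter on low counts its log2 fold change was -1.74 ± 0.99 (edgeR adjusted p = 0.708). Gfra4 lies outside the rule by which genes were named. Its ligand gene Pspn had 0 counts in muscle, which allows up to 0.841 CPM over the group, and 0, 2 and 4 counts in lymph node 1, 2 and 3.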
